A study of Mus musculus with 4 samples.

Results

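The genes of the Lin28 and let-7 pathway were examined in embryonic stem (ES) cells of the mouse, which can form all tissues of the body, with and without Snai1. The members were 8 listed genes, namely the RNA-binding proteins Lin28a and Lin28b, the exonuclease Dis3l2, and Trim71, Hmga2, Igf2bp1, Igf2bp2 and Igf2bp3, which are known targets of let-7 microRNAs. A probe set, the group of short probes that an Affymetrix array reads as 1 value, was taken where the platform annotation gave it exactly 1 gene and that gene was a member. This gave 22 of the 45101 probe sets of the array, for 7 of the 8 genes, out of 18193 genes in all. The expression of Igf2bp2 was not analysed here.

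There were 4 arrays, 2 of ES cells with a knockout of Snai1 and 2 of control ES cells. Snai1 encodes Snail, a transcriptional repressor known from epithelial-mesenchymal transition. The titles of the control arrays read F/F, a term left undefined, and their source field holds the words knock out beside control, so that the direction of each difference rests on the title and the genotype field. All cells were grown with leukaemia inhibitory factor on feeder cells, with no further treatment, and the sources used here do not state the strain, the number of clones or how the gene was deleted. The labels call the 2 arrays of a group biological replicates without naming what separated them, so p-values reflect only how far these arrays differ, which may be technical.

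Let-7 microRNAs are short RNAs that accumulate as cells differentiate and silence growth and stem cell transcripts by pairing with them through the seed, the bases near the 5′ end of the microRNA. Lin28 proteins bind the precursors of let-7, and Lin28a recruits uridylating enzymes, Tut4 and Tut7, after which Dis3l2 degrades the tailed precursor. Let-7 in turn silences Lin28a and Lin28b, and undifferentiated ES cells are known for high Lin28a and little mature let-7. The let-7 microRNAs themselves were not analysed here.

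The mature sequences are shown because the seed is the stretch through which let-7 pairs with target transcripts such as those of the members. Of 11 mouse sequences of the family in the RefSeq table (build GRCm38.p6), 10 share the seed GAGGUAG at bases 2 to 8, and mmu-let-7j has GAGGUAU. Capitals mark the seed in the following 5, read 5′ to 3′.
mmu-let-7a-5p: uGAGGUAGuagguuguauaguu
mmu-let-7d-5p: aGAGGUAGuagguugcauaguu
mmu-let-7g-5p: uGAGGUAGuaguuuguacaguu
mmu-miR-98-5p: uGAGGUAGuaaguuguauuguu
mmu-let-7j: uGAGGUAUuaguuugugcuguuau

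Lin28 proteins are known to contact the letters GGAG in the loop of many let-7 precursors. These letters lay between the mature arms in 9 of 12 hairpins of let-7 or miR-98 in the RefSeq table. They lay anywhere in the hairpin in 75% of these 12, against 44.5% of all 1005 mouse hairpins. The 12 do not include hairpins of let-7j and let-7k, whose mature sequences were counted above. The hairpin of let-7g, which lies in an intron of Wdr82, holds the motif, in capitals, and that of let-7b does not.
Mirlet7g, chr9:106178840-106178927, plus strand, GRCm38.p6: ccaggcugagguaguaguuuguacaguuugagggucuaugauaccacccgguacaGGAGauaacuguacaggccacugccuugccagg
Mirlet7b, chr15:85707319-85707403, plus strand, GRCm38.p6: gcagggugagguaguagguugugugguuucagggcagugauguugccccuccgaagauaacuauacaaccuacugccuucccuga

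Values are log2 expression, so that a difference of 1 is a doubling, and differences are knockout minus control. Each gene was read from its brightest probe set in a limma fit over 18193 genes, and all probe sets were tested again singly over 45037 probe sets, both with Benjamini-Hochberg adjustment and a threshold of 0.05. The array medians lay between 4.91 and 4.95, and Pearson's r over genes was 0.994 within each group and 0.986 to 0.990 between groups. Control probe sets for Bacillus transcripts, which mouse RNA should not bind, ranged from 2.91 to 4.77 (24 probe sets), and values in this range are called background. Snai1 itself was at background on every array, at 3.79 and 4.04 in the knockout, against 4.41 and 4.69 in the control (difference -0.63, adjusted p = 0.0692), and the sources used here do not state whether its probe set lies in the deleted part. In the fit over genes 4.14% passed, 360 higher and 394 lower in the knockout, and after a further quantile normalization 527 were higher and 337 lower. The gap between the 3′ and 5′ control probe sets of Actb is a measure of how intact the copied RNA is. It was 1.11 and 0.80 in the knockout, against 3.02 and 2.97 in the control. The same gap for Gapdh was 0.40 and 0.27 in the knockout, against 1.24 and 1.48 in the control. The number of arrays limits every comparison, and an exact permutation test of 2 arrays against 2 cannot give a two-sided p below 0.333.

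Of the 7 members, Lin28a passed in the fit over genes, as higher in the knockout, and none passed as lower, against 1.98% higher and 2.17% lower among all genes. In the fit over single probe sets, 2 of the 22 passed, a probe set of Lin28a and a probe set of Igf2bp1, both higher. Of all probe sets 0.546% passed, with 0.44% of all probe sets higher and 0.107% lower. The knockout arrays lay above both control arrays at 7 of the 22, of which 1 was at background on every array, and below both at 2, while the groups overlapped at 13. Over all probe sets the groups did not overlap for 49.4%, with 23.5% above and 26% below. The median difference was -0.07 over the 7 members and -0.02 over all genes, and 0.05 over the 22 probe sets and -0.01 over all probe sets.

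**Figure D1:**
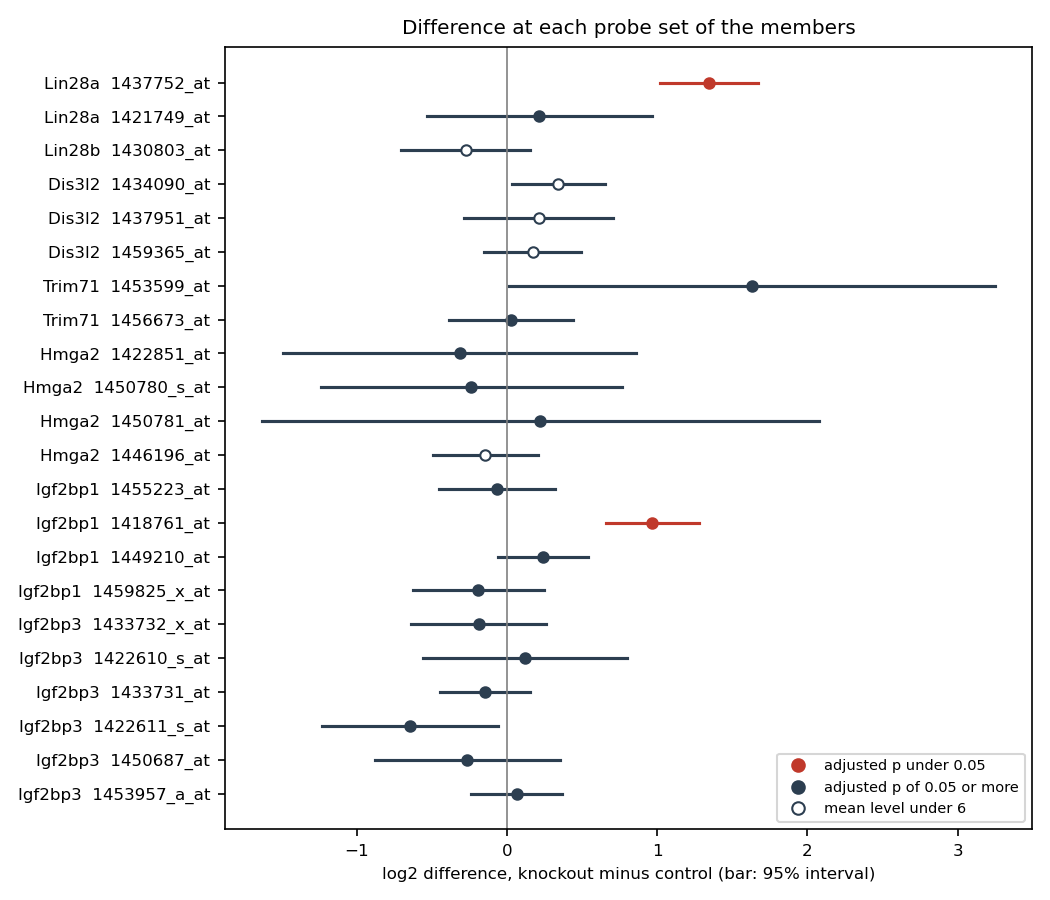
Log2 difference, knockout minus control, at each of the 22 probe sets (points) with the 95% interval of the limma fit over single probe sets (bars). The points past the threshold are 1437752_at of Lin28a, at 1.34, and 1418761_at of Igf2bp1, at 0.97, and open points are probe sets with a mean level under 6.

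Lin28a rose in the knockout at its brighter probe set. Lin28a lies on chromosome 4 (GRCm38.p6, 134003330 to 134019196) and its protein blocks the maturation of let-7. Probe set 1437752_at was at 11.68 and 11.49 in the knockout arrays, against 10.22 and 10.26 in the control arrays. Both knockout arrays were high, both control arrays were low, and the gap between the groups was larger than the spread within either. The means were 11.58 ± 0.14 in the knockout, against 10.24 ± 0.03 in the control (n = 2 each, SD). The log2 difference was 1.34 ± 0.14 (SE), which is 2.54-fold (adjusted p = 0.0162, and adjusted p = 0.0366 over all probe sets). In these bulk samples more cells that express a gene and more RNA per cell cannot be told apart.

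The other Lin28a probe set did not show this rise. Probe set 1421749_at was at 7.90 and 8.88 in the knockout, against 8.23 and 8.12 in the control. Knockout replicate 1 was the lowest of the 4 arrays and knockout replicate 2 the highest, so the groups overlapped (difference 0.22 ± 0.31, SE, adjusted p = 0.778). The 95% interval ran from 1.02 to 1.67 at 1437752_at and from -0.53 to 0.96 at 1421749_at, and these intervals did not overlap. The difference between the 2 probe sets was not tested. Over the array, 105 genes had at least 2 probe sets at a mean of 6 or more and at least 1 of them past the threshold. In 99 of these (94.3%) another such probe set did not pass. As only 0.546% of all probe sets passed, this share does not show how often probe sets of a gene differ. Both Lin28a probe sets stood well above background, and the sources used here do not state where each lies along the transcript. With the probe sets of each gene averaged, Lin28a differed by 0.78 (adjusted p = 0.0575). It did not pass with any 1 array left out either (differences 1.25 to 1.44, adjusted p 0.0652 to 0.103).

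The Actb and Gapdh gaps, which differed by -2.04 and -1.02, moved with the Lin28a difference. So did the genomic span of the genes that passed. Lin28a spans 15.9 kb, and among bright genes, those with a mean of at least 6, the median span was 8.83 kb for those higher, 52.8 kb for those lower and 23.2 kb for those that did not pass. With the trend of each array with span and mean level removed, Lin28a differed by 1.39 (adjusted p = 0.0158), as large as without this step. The part of RNA quality in the difference was not tested.

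A RefSeq promoter window of 300 bases for Lin28a is shown because Snail is known to bind the letters CAGGTG. It lies inside the locus given above and does not reach the 5′ end of that locus, at 134019196. Neither these letters nor their reverse complement CACCTG occur in this window, whereas 20.2% of 32851 mouse promoter windows of the same length hold them. Of 7 windows for the listed genes, that of Dis3l2 holds them. These 7 include a window of Igf2bp2, whose expression was not analysed, and none of Igf2bp1. Whether the promoter of Igf2bp1 holds these letters was not tested.
Lin28a, chr4:134018767-134019066, minus strand, GRCm38.p6, from RefSeq: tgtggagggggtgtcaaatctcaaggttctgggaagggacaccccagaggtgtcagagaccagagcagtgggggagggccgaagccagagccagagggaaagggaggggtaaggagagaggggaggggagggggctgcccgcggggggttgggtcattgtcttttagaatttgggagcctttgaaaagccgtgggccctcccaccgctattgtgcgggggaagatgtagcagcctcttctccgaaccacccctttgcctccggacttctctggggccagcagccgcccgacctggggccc

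Lin28b, the paralog of Lin28a, was not detected above background. Its only probe set was at 3.67 and 3.42 in the knockout, against 3.63 and 4.0 in the control, within the range of the Bacillus probe sets on all 4 arrays (adjusted p = 0.407). No fold is given for it. Lin28b lies on chromosome 10 (GRCm38.p6, 45376617 to 45486314).

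Dis3l2, the exonuclease that degrades uridylated let-7 precursors, was dim and did not pass. Its brightest probe set, 1434090_at, was at 5.80 and 5.67 in the knockout, against 5.40 and 5.39 in the control. Both knockout arrays lay above both control arrays, with a difference of 0.34 ± 0.13 (SE, adjusted p = 0.180). Probe set 1437951_at was at 5.03 and 5.32 in the knockout, against 5.21 and 4.72 in the control, with overlap. Probe set 1459365_at was at background on every array. None of the 3 passed.

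Trim71, also called Lin41, is a ubiquitin ligase and RNA-binding protein of stem cells and a classical let-7 target. Its brighter probe set, 1453599_at, was at 11.53 and 11.20 in the knockout, against 10.86 and 8.60 in the control. Control replicate 2 lay 2.26 below control replicate 1, and that spread was larger than the difference between the group means. The difference of 1.63 ± 0.61 (SE) did not pass (adjusted p = 0.160). It was 0.50 without control replicate 2 (adjusted p = 0.283) and 2.76 without control replicate 1 (adjusted p = 0.0250), so that control replicate 2 set its size. With the mean feeder marker level in the model, which follows the replicate number, it was 1.94 and passed (adjusted p = 0.000580). In that fit 3077 of the 18193 genes passed, against 754 without it. With the replicate number as a block Trim71 passed over genes (adjusted p = 0.00509), but 1453599_at did not over all probe sets (adjusted p = 0.0788). The labels do not pair the arrays by number. The other probe set, 1456673_at, was at 10.25 and 9.84 in the knockout, against 9.99 and 10.04 in the control. There the groups overlapped and differed by 0.03 ± 0.17 (SE, adjusted p = 0.960).

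The low value of control replicate 2 was shared by a small set of probe sets. Of 16281 probe sets at a mean of 6 or more, 26 were lower in control replicate 2 than in control replicate 1 by 2 or more on the log2 scale, and 0 were higher by as much. In the knockout, 2 were lower in replicate 2 by as much and 0 were higher. Among the members, 1453599_at of Trim71 and 1450781_at of Hmga2 belonged to the 26.

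**Figure D2:**
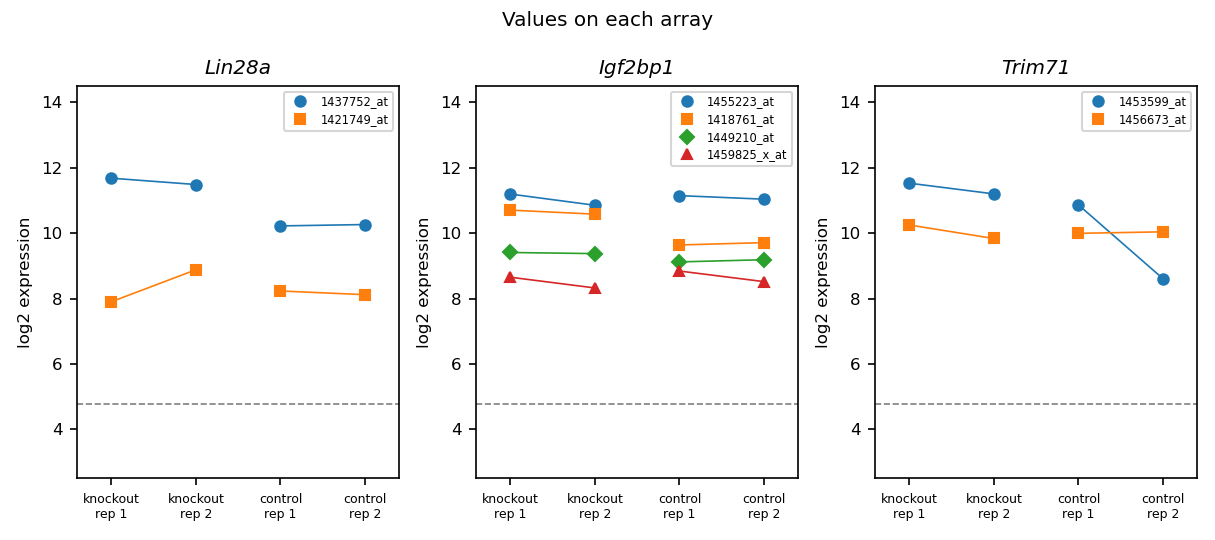
Log2 expression on each of the 4 arrays for every probe set of Lin28a, Igf2bp1 and Trim71, with lines joining the 2 replicates of a group and a dashed line at the highest background value, 4.77. At 1437752_at of Lin28a and 1418761_at of Igf2bp1 both knockout arrays lie above both control arrays, and at 1453599_at of Trim71 control replicate 2, at 8.60, lies apart from the other arrays.

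Igf2bp1, which binds and stabilises messenger RNAs such as that of Igf2 and is a let-7 target, gave 4 probe sets that did not move together. At 1418761_at the values were 10.70 and 10.58 in the knockout, against 9.64 and 9.71 in the control. Both knockout arrays were higher by more than the spread within either group, with a difference of 0.97 ± 0.13 (SE, adjusted p = 0.0488 over all probe sets). With each array centred on its median this difference was 0.95 (adjusted p = 0.0522). The brightest probe set, 1455223_at, was at 11.20 and 10.85 in the knockout, against 11.15 and 11.04 in the control.

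At 1455223_at the groups overlapped, and the difference was -0.07 ± 0.16 (SE, adjusted p = 0.863 over genes). At 1449210_at the values were 9.41 and 9.37 in the knockout, against 9.12 and 9.19 in the control, without overlap but short of the threshold (0.24 ± 0.12, SE, adjusted p = 0.367). At 1459825_x_at, whose suffix marks probes that can bind unrelated transcripts, the difference was -0.19 ± 0.18 (SE). The 95% interval at 1418761_at ran from 0.66 to 1.28 and that at 1455223_at from -0.46 to 0.32, without overlap, and the difference between them was not tested. Read from its brightest probe set Igf2bp1 did not pass, and 1 of its 4 probe sets did. As stated for Lin28a, 99 of 105 such genes over the array had another probe set that did not pass, which does not show how often probe sets differ. With any 1 array left out, the difference at 1418761_at was 0.91 to 1.03.

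Igf2bp3, a related messenger RNA-binding protein, had 6 probe sets, all with means of 6 or more, and none passed. Differences ran from -0.64 to 0.12, with 2 positive and 4 negative. The largest was that of 1422611_s_at, at 8.70 and 8.02 in the knockout, against 8.88 and 9.13 in the control. Both knockout arrays lay below both control arrays there (-0.64 ± 0.24, SE, adjusted p = 0.216). The suffix of this probe set marks probes shared between several transcripts, so a related transcript cannot be told apart at it. The brightest, 1433732_x_at, was at 9.66 and 9.18 in the knockout, against 9.63 and 9.59 in the control (adjusted p = 0.611). This probe set gave the value of the gene, and its suffix marks probes that can bind unrelated transcripts. At 1453957_a_at the values were 6.90 and 6.81 in the knockout, against 6.81 and 6.77 in the control, a difference of 0.06.

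Hmga2, an architectural chromatin protein and a well known let-7 target, varied between replicates more than between groups. Its brightest probe set, 1422851_at, was at 8.88 and 7.81 in the knockout, against 9.28 and 8.04 in the control. Replicate 1 was higher than replicate 2 by 1.07 in the knockout and by 1.23 in the control, and the groups differed by -0.31 ± 0.45 (SE, adjusted p = 0.748). Probe set 1450780_s_at was at 8.68 and 7.65 in the knockout, against 8.86 and 7.95 in the control, and it repeated this order. Its suffix marks probes shared between several transcripts. Probe set 1450781_at was at 6.74 and 5.97 in the knockout, against 7.39 and 4.88 in the control. The last, 1446196_at, was at background. At probe sets with a mean of 6 or more, replicate 1 was the higher array in both groups at 3 of 3 for Hmga2, 3 of 6 for Igf2bp3, 2 of 4 for Igf2bp1, 1 of 2 for Trim71 and 0 of 2 for Lin28a. That order held at 9 of 17 over the members and at 25.7% of all 16281 such probe sets.

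Markers of fibroblasts, the usual feeder cells, had the same order of arrays. Their mean level over 23 genes was 7.90 in replicate 1 and 7.22 in replicate 2 of the knockout, against 8.05 in replicate 1 and 7.39 in replicate 2 of the control. Summed on the linear scale they came to 13061 and 8499 in the knockout, against 13373 and 8365 in the control. Of the 23, 18 were higher in replicate 1 in both groups, and 0 were at background on every array. No marker passed between the groups. The largest difference was that of Prrx1, a mesenchymal homeobox gene, at 6.83 and 6.09 in the knockout, against 8.02 and 7.39 in the control (-1.24 ± 0.28, SE, adjusted p = 0.0549), and its other probe sets differed by -1.07 to 0.76. The part of feeder cells in the Hmga2 values was not tested.

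**Figure D3:**
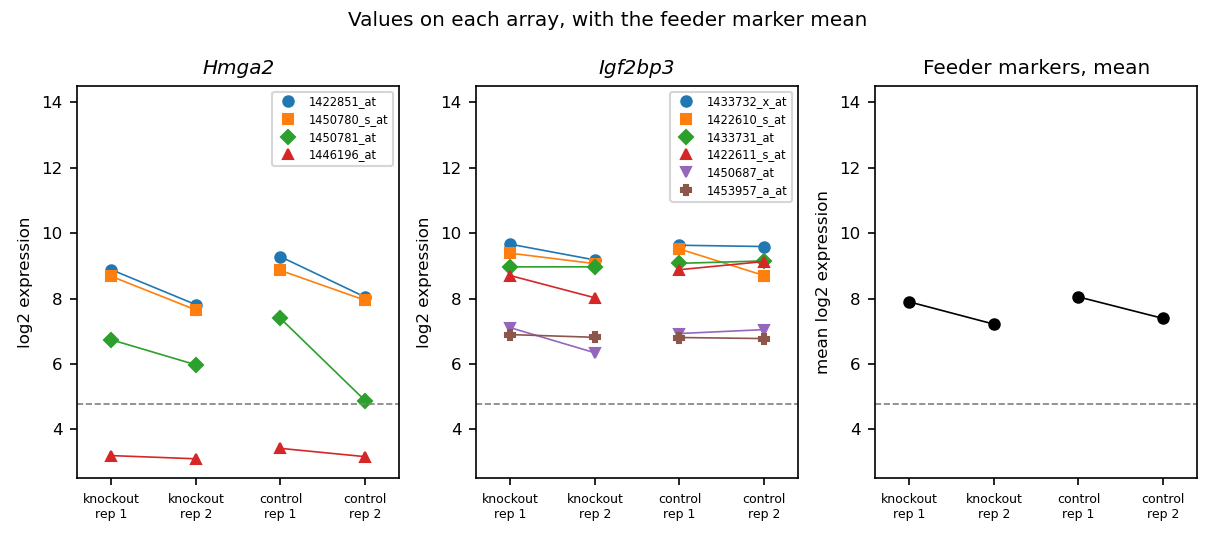
Log2 expression on each array for the probe sets of Hmga2 and Igf2bp3, and the mean log2 level of 23 fibroblast feeder markers, with lines joining the replicates of a group and a dashed line at the highest background value, 4.77. Hmga2 and the feeder marker mean (7.90 and 7.22 in the knockout, 8.05 and 7.39 in the control) are higher in replicate 1 than in replicate 2 in both groups.

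The other genes of the pathway were read from lists of 78 genes, of which 59 were measured. Of these 4 rose and 2 fell, with a median difference of -0.09. That is 6 of 59 past the threshold, beside 4.14% of all genes. In a fit of only the genes at a mean of at least 6, 1224 of 9484 passed, 7 of them pathway genes. Of the 59, that fit left out Ago3, Ago4, Insr, Fas, Acvr1c and Igf1, so the 7 are a share of the rest. With averages over the probe sets of each gene 3 rose and none fell, and with any 1 array left out 0 to 2 passed. Tested singly over all probe sets, 2 passed. Of all 18193 genes, 321 passed with averages and 91 tested singly.

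Among 15 genes that process let-7 and its precursors, 1 fell and none rose. Prkra, also called PACT, a double-stranded RNA-binding partner of Dicer, was at 7.61 and 7.54 in the knockout, against 8.18 and 8.26 in the control. Both knockout arrays were lower (-0.64 ± 0.13, SE, adjusted p = 0.0465), and with the span trend removed the difference was -0.50 (adjusted p = 0.0711). Averaged with its other probe set, which was at background, it was -0.34 (adjusted p = 0.148). The list's median difference was -0.09. The uridylating enzymes, chosen here for their role and outside the naming rule, did not pass. Tut4 was at 8.78 and 8.29 in the knockout, against 8.45 and 7.76 in the control (adjusted p = 0.364), and Tut7 at 8.43 and 8.04 in the knockout, against 8.75 and 8.64 in the control (adjusted p = 0.150). Both knockout arrays lay below both control arrays for Tut7, while Tut4 overlapped. Drosha and Dicer1, the nucleases that cut primary and precursor microRNAs and likewise chosen for their role, differed by -0.40 and -0.17 (adjusted p = 0.118 and 0.561).

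None of 9 genes of the silencing complex passed, and their median difference was -0.08. The largest difference was that of Ago2, the slicing Argonaute protein, whose brightest probe set was at 10.00 and 9.29 in the knockout, against 9.32 and 8.50 in the control (0.73 ± 0.31, SE, adjusted p = 0.207). The arrays of the 2 groups overlapped there. Its 3 other probe sets differed by 0.82, -0.32 and 1.13 and did not pass.

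Among 24 further genes listed as let-7 targets, 3 rose and 1 fell, and the median difference was -0.15. Cdc34, a ubiquitin-conjugating enzyme of the cell cycle, was at 10.94 and 11.15 in the knockout, against 9.67 and 9.92 in the control (1.25 ± 0.16, SE, adjusted p = 0.0232). Arid3b, a DNA-binding protein, was at 7.89 and 7.67 in the knockout, against 6.74 and 6.84 in the control (0.99 ± 0.14, SE, adjusted p = 0.0299). Plagl2, a zinc finger transcription factor, was at 6.89 and 6.81 in the knockout, against 6.0 and 5.35 in the control (adjusted p = 0.0406). In all 3 both knockout arrays were higher than both control arrays. Averaged over their probe sets, Arid3b and Plagl2 differed by 0.53 and 0.44 (adjusted p = 0.0656 and 0.0984).

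Insr, the insulin receptor, fell to 5.35 and 5.25 in the knockout, against 6.60 and 6.19 in the control (-1.10 ± 0.17, SE, adjusted p = 0.0328). Other probe sets of Insr, at a mean under 6, differed by -0.05 and 0.17, and another of Plagl2 at a mean of 6.15 by 0.39, and none of these passed. Averaged over its probe sets Insr differed by -0.32 (adjusted p = 0.195). Among the 20 that did not pass, Irs2, an insulin receptor adaptor named after its values were seen, was at 7.60 and 7.17 in the knockout, against 7.05 and 5.22 in the control, with control replicate 2 again the lowest. Myc and Mycn, growth regulators chosen for their role, differed by 0.12 and -0.15 (adjusted p = 0.663 and 0.635). Over the 24 targets, both knockout arrays lay above both control arrays in 7 and below both in 10, where among all genes 52.3% did not overlap, 23.1% above and 29.2% below.

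Of the genes that host let-7 precursors 2 were measured and neither passed. Wdr82, whose intron holds let-7g, was at 10.94 and 10.65 in the knockout, against 11.19 and 11.16 in the control (-0.38 ± 0.15, SE, adjusted p = 0.180). Huwe1, which hosts let-7f-2 and miR-98, differed by -0.32 (adjusted p = 0.436).

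Among 9 genes of insulin-like growth factor signalling 1 rose and none fell. Igfbp2, a secreted binding protein of these growth factors, was at 11.89 and 11.66 in the knockout, against 10.49 and 10.56 in the control. Both knockout arrays were higher by more than the spread within the groups (1.25 ± 0.14, SE, adjusted p = 0.0186). Igf2, whose messenger RNA gives the Igf2bp proteins their name and which was chosen for that reason, was at 7.44 and 6.81 in the knockout, against 7.15 and 6.78 in the control, with overlap (adjusted p = 0.745). The median difference of the list was 0.16.

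**Figure D4:**
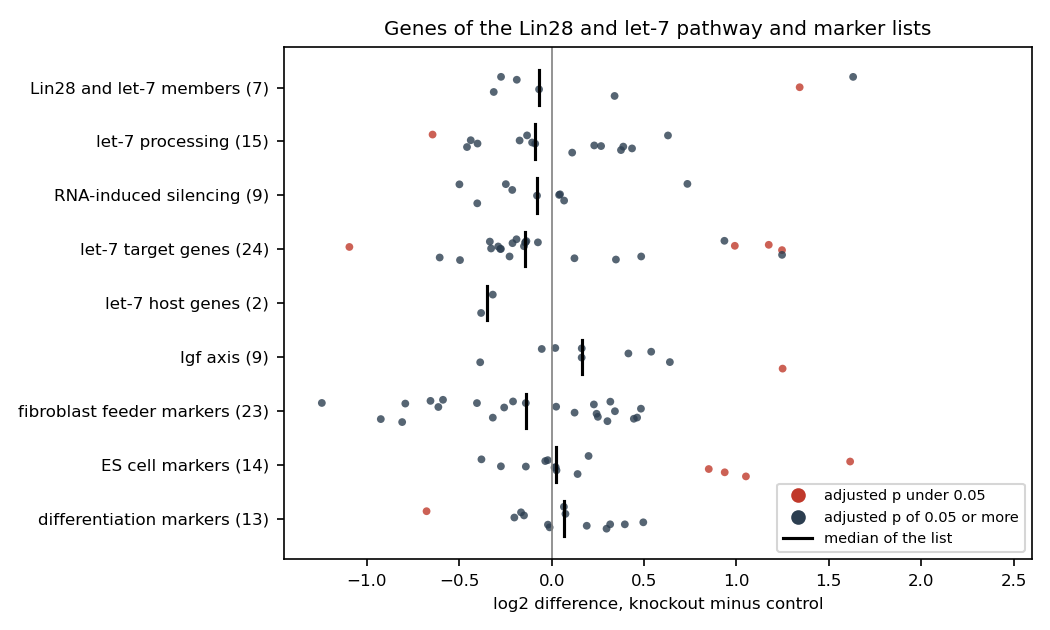
Log2 difference, knockout minus control, for each measured gene (points, scattered vertically for legibility) of the 7 Lin28 and let-7 members and of 8 lists, with the number of genes in brackets and the median as a vertical bar. The medians of the let-7 target genes, -0.15, and of the let-7 processing genes, -0.09, lie near 0, and of the target genes past the threshold 3 lie between 0.99 and 1.25 and 1, Insr, lies at -1.10.

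Over the 4 arrays, each centred on the gene's mean, the genes at a mean of 6 or more whose values lay closest to those of Lin28a at 1437752_at were Pdap1, Akt1s1 and Igfbp2, at Euclidean distances of 0.08, 0.09 and 0.10 on the log2 scale. They differed by 1.26, 1.26 and 1.25 between the groups, and all 3 likeness values rest on 4 arrays. Pdap1 was at 11.65 and 11.44 in the knockout, against 10.25 and 10.31 in the control.

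Markers of ES cells, given as the check of the labelled cell type, were high on all arrays. The list holds Sall4, which is also on the target list. Means over 14 genes were 11.40 and 11.29 in the knockout, against 10.99 and 11.12 in the control. Of these 4 rose and none fell, and the list's median difference was 0.02. The 10 that did not pass included Sox2, Sall4 and Fgf4. These differed by -0.02, -0.27 and -0.38, the last being the lowest of the list. Pou5f1, which encodes Oct4, was at 13.07 and 12.98 in the knockout, against 12.12 and 12.23 in the control, and Utf1, Esrrb and Nanog rose by 1.62, 1.05 and 0.94. Averaged over their probe sets, Utf1 differed by 0.80 (adjusted p = 0.0369) and Esrrb by 0.63 (adjusted p = 0.0601). Tested singly over all probe sets, Esrrb, Nanog and Pou5f1 did not pass (adjusted p = 0.0717, 0.0566 and 0.0559). The list's summed linear level was 57195 and 56031 in the knockout, against 47142 and 50206 in the control, and the part of these markers in the Lin28a difference was not tested. Among 13 markers of differentiated cells none rose and 1 fell. This was Pax6, a neural transcription factor, at 6.25 and 6.15 in the knockout, against 6.84 and 6.92 in the control (-0.68 ± 0.13, SE, adjusted p = 0.0453). It did not pass with an intensity trend (adjusted p = 0.0584) or tested singly (adjusted p = 0.0673), and averaged over its probe sets it differed by 0.0013 (adjusted p = 0.998).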

How the data were processed

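RNA of 4 ES cell samples was read on single-colour Affymetrix arrays after labelling from the 3′ end, per the labels. The deposited values are log2 expression per probe set. The submitters' processing notes name RMA and limma, without version, order or settings. RMA forces the probe intensities of the arrays to 1 distribution, so a change common to most genes would not show. The deposited probe set values are not on exactly 1 distribution, with array medians between 4.91 and 4.95. Values were used as deposited. Gene symbols came from the platform annotation, and 34945 non-control probe sets had 1 symbol. Spans and sequences came from RefSeq tables (GRCm38.p6). The sources used here name no genome build for the array annotation. Depth does not apply to arrays.

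The groups were compared in limma 3.58.1 under R 4.3.3 (lmFit, eBayes, 2 residual and 5.31 prior degrees of freedom over genes), two-sided, for the brightest probe set of each gene and for all 45037 non-control probe sets. Intervals are 95%. The fit was tested on simulated data. Named were all members and, for each list, up to 4 genes with the largest change past the threshold or the 1 with the largest change where none passed, the 3 genes nearest to Lin28a, and Snai1. Members and lists were chosen with earlier results of these data known. Listed genes that had no value are not analysed here. Alternatives were an intensity trend, robust eBayes, quantile normalization, median centring, a filter on means under 6, averaging or testing singly all probe sets, span-trend removal (loess, span 0.3), the feeder marker level as a covariate, the replicate number as a block, and omission of each array in turn.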

Additional observations from a re-analysis of the deposited data

How the results depend on the processing

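In the limma fits 1 member gene, 2 member probe sets and 6 other pathway genes passed. The labels do not say that a replicate number marks a shared batch, and deviations of same-numbered arrays correlated at r = 0.29 over 18193 genes. With the replicate block 2 member genes (Lin28a and Trim71) and 16 pathway genes passed, out of 3092 genes in all against 754 without it. Trim71 had adjusted p = 0.00509 with the block over genes, but 1453599_at had adjusted p = 0.0788 with it over all probe sets. The pairing also brought Ago2, Prrx1 and Snai1 past the threshold and lost no member. With the mean feeder marker level added to the model, which follows the replicate number, 2 member genes and 17 pathway genes passed, out of 3077 genes in all. With the mean of all probe sets 0 member genes and 3 pathway genes passed, out of 321 genes in all. With all probe sets tested singly 2 pathway genes passed, out of 91 genes in all. With arrays centred on their median 1 member probe set passed. With genes at a mean of at least 6, Prrx1 passed (adjusted p = 0.0348). Prkra did not pass with an intensity trend (adjusted p = 0.0707). Leaving out 1 array gave 0 to 1 member genes, 0 to 1 member probe sets and 0 to 2 pathway genes, where 4 to 50 genes passed in all with 1 residual degree of freedom, and the 1 member was Trim71, without control replicate 1.

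Without the span trend, signs turned for Igf2bp1 (0.13, and 0.10 at 1455223_at) and Igf2bp3 (0.073, 0.031 at 1433732_x_at and 0.063 at 1433731_at). With the mean of all probe sets they turned for Igf2bp1 (0.24) and Pax6 (0.0013). None of these turned values passed, and the cause was not tested. With 1 array left out, signs also turned for Hmga2 (-0.93 to 0.30 at 1422851_at, -0.75 to 0.28 at 1450780_s_at, -1.03 to 1.48 at 1450781_at), Igf2bp1 (-0.24 to 0.10 at 1455223_at) and Igf2bp3 (-0.43 to 0.052 at 1433732_x_at, -0.29 to 0.53 at 1422610_s_at, -0.65 to 0.12 at 1450687_at). They turned too at Lin28a 1421749_at (-0.27 to 0.71), Dis3l2 1437951_at (-0.032 to 0.45) and Trim71 1456673_at (-0.18 to 0.23). Of the values for single genes and probe sets, 433 kept direction and side of the threshold, 72 lost it, 11 gained it and 25 changed sign. The number of arrays and, for Lin28b and 2 further member probe sets, a signal within background limit what these data can show.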
